A study of Homo sapiens with 9 samples.

Results

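The B-cell receptor and the proteins that carry its signal were examined as a set of 40 genes, chosen by symbol, in a count table of 59050 gene symbols. All 40 symbols were found in the table. MEC1, an established cell line of chronic lymphocytic leukaemia (CLL), a cancer of mature B cells, was profiled by RNA sequencing in 3 groups of 3 samples: 2D culture with no time point given (2D), cells bioprinted in a 3D hydrogel scaffold and harvested at day 7 (3D_7d), and the same harvested at day 14 (3D_14d). All 9 samples are of this 1 line and carry the string MECPGK in their names, which the labels do not explain, and no drug or antigen was named for any group. RNA from scaffolds was taken with TRIzol, then DNase I and a column, while RNA from 2D culture was taken with the column kit alone. Culture format and extraction can therefore not be told apart in any comparison with 2D. Both scaffold groups shared 1 extraction protocol, but whether they were extracted together is not stated. A batch of extraction at each harvest could not be told apart from the day. The labels number the samples of a group from 1 to 3 without saying that they were separate cultures or scaffolds, and p-values therefore measure only the spread between these samples, which may be technical.

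The reads assigned to genes numbered 54662799 in the smallest library and 85968686 in the largest. The 40 genes took 0.898% to 0.938% of these reads in 2D culture, then 1.01% to 1.10% at day 7 and 1.02% to 1.24% at day 14. Replicates differed by more than counting error, and the day 14 samples most, with a median coefficient of variation of the members of 19.5% against 5.75% in 2D and 10.5% at day 7. 3D_14d replicate 1 stood apart from its group: it held the lowest of the 3 values for 23 of 39 members and the highest for 10. In the day 7 group, replicate 1 held the highest value for 20 of 39 members and the lowest for 10. Markers of B cells were present in every group, 6 of 6 above a level of 1 CPM (counts scaled to a common library size with TMM factors), and summed to 11998 to 14049 CPM in 2D culture, then 14072 to 15965 at day 7 and 19917 to 21094 at day 14, without overlap. Most of that sum was CD74, the invariant chain of MHC class II, with a mean of 8002 CPM in 2D culture, 9641 at day 7 and 14229 at day 14. T cell markers summed to at most 3.91 and myeloid markers to at most 5.14 CPM in any sample. Stromal and endothelial markers summed to 23.5 to 27.2 CPM in 2D culture, then 38.1 to 55.2 at day 7 and 53.7 to 80.0 at day 14. Most of that sum was PECAM1, an inhibitory receptor that B cells also carry, while COL1A1, the collagen chain that defines fibroblasts, averaged 6.93 in 2D culture, then 3.00 at day 7 and 3.20 at day 14.

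The B-cell receptor is a membrane immunoglobulin held by the heterodimer of CD79A and CD79B, whose tails are phosphorylated by LYN, BLK or FYN when antigen binds. SYK docks on those tails and, together with BTK and the adaptor BLNK, activates PLCG2, from which calcium, NFAT, protein kinase C and the BCL10 and MALT1 pair follow, while PI3K feeds AKT. Co-receptors set the threshold of this chain, and the phosphatases PTPN6 and INPP5D, drawn to inhibitory receptors such as CD22 and CD72, dampen it. In CLL this pathway sustains the leukaemic cells, and BTK and PI3K delta are drug targets. In bulk RNA, fewer cells with a transcript and less of it per cell cannot be told apart.

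The promoters of 3 surface members that differ in their course are shown, CD79A and CD72, which were highest at day 14, and CD22, which was lower in both scaffold groups than in 2D. The windows run from 250 bases before to 50 after the RefSeq start on GRCh38.p14, 5′ to 3′ on the gene's strand, and capitals mark matches on either strand to GGAAG, the core that ETS factors bind, or to GAGGAA, the form read by PU.1.
CD79A, chr19:41877029-41877328, plus strand: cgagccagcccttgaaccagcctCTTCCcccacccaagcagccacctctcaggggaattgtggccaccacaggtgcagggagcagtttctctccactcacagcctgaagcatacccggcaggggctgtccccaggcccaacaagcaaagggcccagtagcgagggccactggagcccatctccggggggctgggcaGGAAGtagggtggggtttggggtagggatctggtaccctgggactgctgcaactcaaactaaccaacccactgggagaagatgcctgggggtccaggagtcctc
CD72, chr9:35618364-35618663, minus strand: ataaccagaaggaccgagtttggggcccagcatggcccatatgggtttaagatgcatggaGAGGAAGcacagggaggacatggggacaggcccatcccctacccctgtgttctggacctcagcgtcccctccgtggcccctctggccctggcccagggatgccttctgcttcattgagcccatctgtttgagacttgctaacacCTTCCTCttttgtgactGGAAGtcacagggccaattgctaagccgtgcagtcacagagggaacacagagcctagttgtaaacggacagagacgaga
CD22, chr19:35328937-35329236, plus strand: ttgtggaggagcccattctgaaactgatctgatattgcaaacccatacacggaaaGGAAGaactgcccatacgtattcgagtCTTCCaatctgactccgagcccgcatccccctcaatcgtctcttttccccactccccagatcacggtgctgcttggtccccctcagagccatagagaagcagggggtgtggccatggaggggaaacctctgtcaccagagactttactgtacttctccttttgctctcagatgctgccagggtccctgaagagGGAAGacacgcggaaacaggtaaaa

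GGAAG occurred 2 times in the CD79A window and 3 times each in those of CD72 and CD22, and GAGGAA 2 times in CD72 alone, each overlapping a GGAAG match. The octamer ATTTGCAT and the EBF core CCCNNGGG matched in none of these windows. GGAAG was found in 71.9% of the 35116 promoters of the RefSeq table and in 44 of the 56 promoters matched to members, GAGGAA in 27.9% and in 26, CCCNNGGG in 19.1% and in 19, and ATTTGCAT in 1.77% and in 1, that of PRKCB. GGAAG was added to the search after these windows had been read. Promoters were matched for 32 of the 40 members, without CD79B, CD37, CD81, LYN, BLK, PAG1, LAT2 and CBL.

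Transcript levels can be ranked between genes only per length of exon, as RPKM, a read count scaled by exon length and library size. In 2D the highest levels were those of CD79A, with 403 ± 44 RPKM (SD, n = 3 here and below), and of PTPN6, the phosphatase SHP-1, with 396 ± 23. The adaptor BLNK followed with 324 ± 8.1 and the kinase BLK with 290 ± 5.3. CD79A and PTPN6 did not differ beyond their spread, nor did the adaptor GRB2 with 94.4 ± 3.6 and the kinase CSK with 95.2 ± 3.4. At day 7 PTPN6 led with 777 ± 36 RPKM, ahead of CD79A with 499 ± 58, and at day 14 CD79A led with 1040 ± 210, ahead of PTPN6 with 824 ± 140, a pair whose sample values overlapped. The partner chain CD79B stood at 128 ± 15 in 2D and 279 ± 81 at day 14. At the other end of the range were CBL, a ubiquitin ligase, with 2.44 ± 0.40 RPKM in 2D, and PAG1, a membrane anchor of CSK, with 0.139 ± 0.017. VAV3, a guanine nucleotide exchange factor, had 0 to 11 reads per sample, and was the 1 member that did not pass the filter on low counts, which asked for more than 1 CPM in at least 3 samples.

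**Figure D1:**
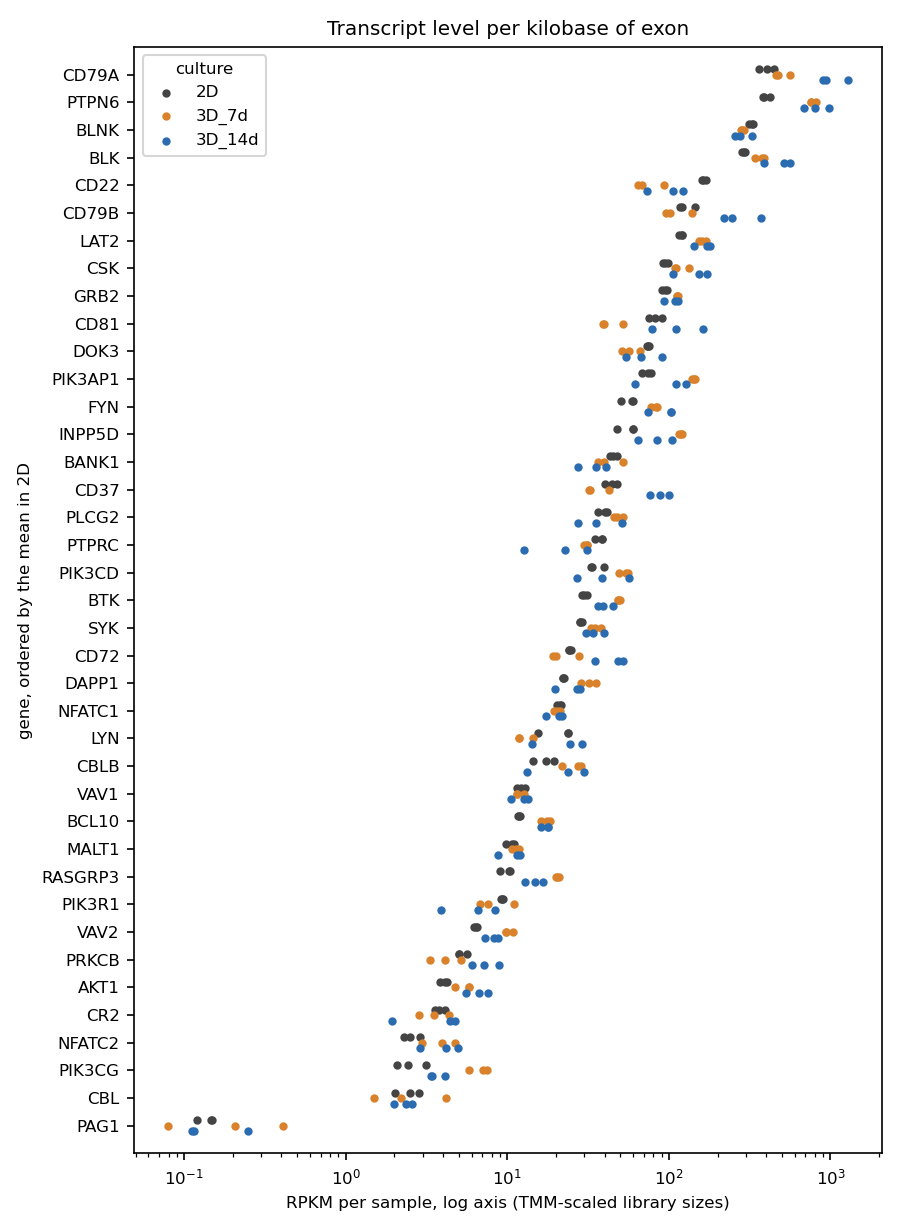
Transcript level of the 39 tested members in every sample, in RPKM on a log axis, with genes ordered by their mean in 2D and each point 1 sample coloured by culture. CD79A, PTPN6, BLNK and BLK form the top of the order in 2D, between 290 and 403 RPKM, and PAG1 lies below 1 RPKM in all groups.

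The first question was which components differ between 2D and scaffold culture. At day 7, 13 of the 39 tested members rose and 3 fell against 2D, 23 did not pass the threshold (an adjusted p of 0.05), and the median log2 fold change of the members was 0.30 against -0.0039 for all 13463 tested genes. The 13 make up 33.3% and the 3 make up 7.69% of the members, beside 22.2% of all tested genes called higher and 21.2% called lower. At day 14, 16 members rose, 2 fell and 21 did not pass, which is 41.0% and 5.13% beside 19.0% and 17.2% of all tested genes, with a median of 0.38 against 0.02. Both comparisons share the 2D samples and are therefore not independent of each other. The members, and the other pathway lists below, were chosen with earlier results of these data known. Their shares beside those of all tested genes are therefore description only. Sample values did not overlap with 2D for 27 members at day 7, 69.2% beside 64.6% of all tested genes, and for 22 members at day 14, 56.4% beside 49.7%.

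The second question was what changed between the scaffold time points, where the extraction protocol was the same. From day 7 to day 14, 7 members rose, 2 fell and 30 did not pass, with a median log2 fold change of -0.0065 against -0.0012 for all tested genes. The shares were 17.9% higher and 5.13% lower, beside 14.5% and 13.6% of all tested genes, and the samples did not overlap for 14 members, 35.9% beside 39.3%. The 7 that rose were the receptor chains CD79A and CD79B, the surface molecules CD72, CD81 and CD37, and the kinases LYN and PRKCB. PIK3CG and RASGRP3 were the 2 that fell. With 3 samples against 3, an exact two-sided permutation test of a single gene cannot give a p below 0.1, and the calls rest on the model across all genes.

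Scaling moved part of these counts. With libraries scaled by their total counts in place of TMM factors, the median of all tested genes moved to -0.16 at day 7 and -0.18 at day 14, the share of calls that were higher moved from 51.1% to 37.6% and from 52.5% to 33.1%, and the members split into 9 that rose and 6 that fell at day 7 and 8 and 4 at day 14. Without 3D_14d replicate 1, which stood apart, 17 members rose and 4 fell at day 7, 21 and 2 at day 14, and 10 and 2 between the time points. Calls over all genes shifted as well, with 7172 of 13335 tested genes called at day 7 in that fit, beside 5838 of 13463 in the main fit. At day 14 that fit called 5308 genes beside 4875, and between the time points 3785 in both fits. Day 14 samples enter the day 7 comparison only through the filter, the TMM factors and the spread, which were estimated over all 9 samples.

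**Figure D2:**
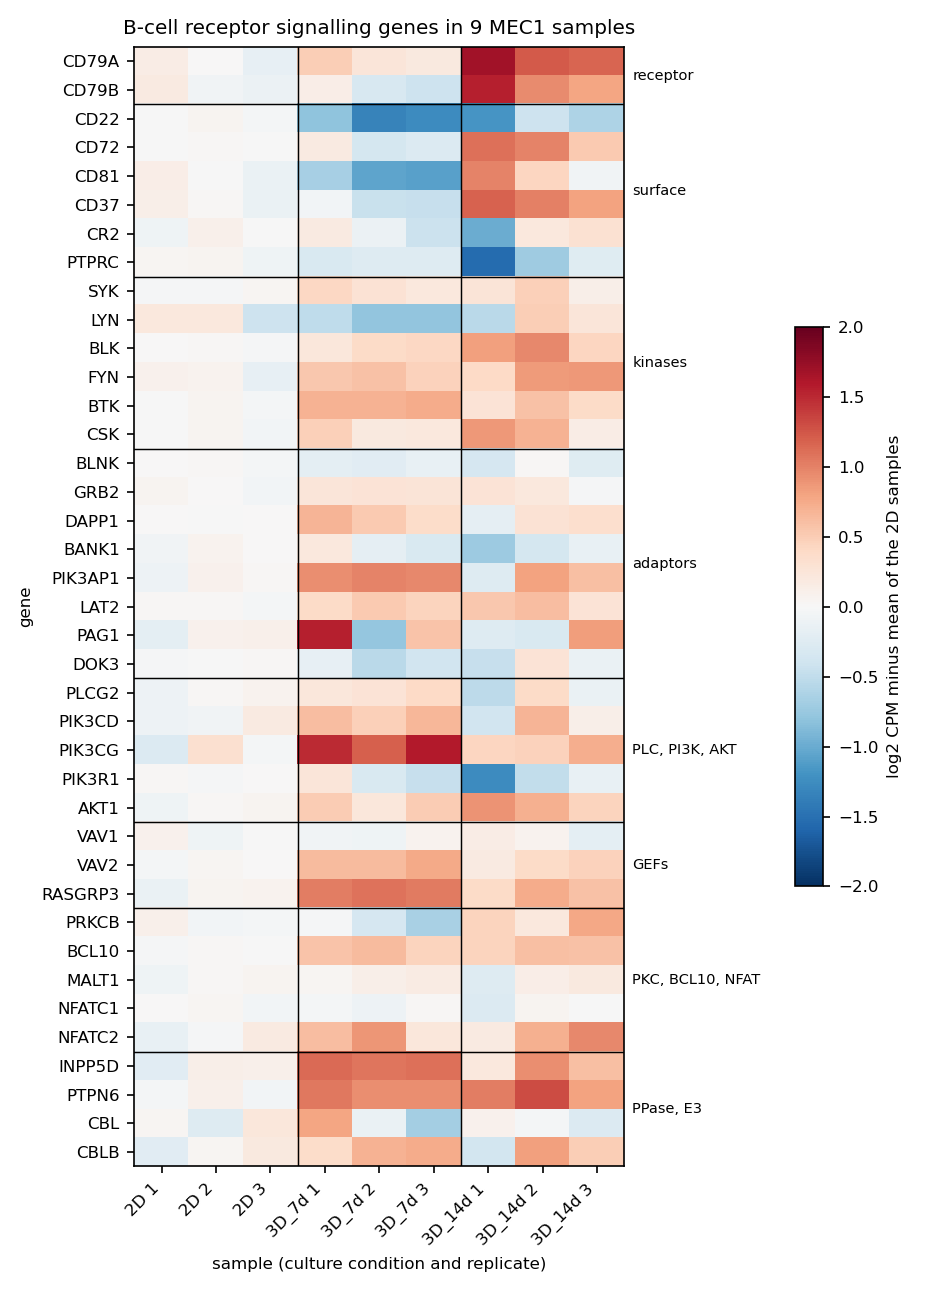
Log2 CPM of the 39 tested members in each of the 9 samples, as the difference from the mean of the 2D samples (red higher, blue lower), with genes grouped by role. CD79A and CD79B are red in all day 14 samples, CD22 is blue in all 6 scaffold samples, and INPP5D, PTPN6 and RASGRP3 are red in all 6.

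The receptor chains were highest at day 14. CD79A (chr19:41877120-41881372, GRCh38) had 561, 509 and 452 CPM in 2D samples 1 to 3, then 711, 595 and 578 at day 7, and 1615, 1182 and 1127 at day 14. Every day 14 sample lay above every other sample, and every day 7 sample above every 2D sample. Replicate 1 was the highest of its group at all 3 conditions. The difference from 2D was 0.31 at day 7 on the log2 scale (SE 0.167, adjusted p = 0.153) and 1.37 at day 14 (SE 0.170, adjusted p = 0.000101), a 2.58-fold rise, and day 14 exceeded day 7 by 1.06 (SE 0.168, adjusted p = 0.00106). With only the 6 samples of the comparison fitted, the day 7 difference of CD79A was called, at 0.31 with an adjusted p of 0.0310. CD79B (chr17:63928740-63932354) had 184, 154 and 150 CPM in the 2D samples, then 177, 130 and 122 at day 7 and 473, 313 and 280 at day 14. Its 2D and day 7 samples overlapped, and all day 14 samples lay above them. The log2 differences were -0.19 at day 7 (SE 0.207, adjusted p = 0.488), 1.13 at day 14 (SE 0.209, adjusted p = 0.00135) and 1.32 between the time points (SE 0.210, adjusted p = 0.00107). The summed B cell markers were also highest at day 14, as given above, although of these 6 genes 1 passed the test as higher than in 2D, and 2 rose and 1 fell from day 7 to day 14. The part of this shift in the rise of the receptor chains and of CD72 and CD37 was not tested.

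Both chains have short transcripts, and libraries differed in how counts depend on gene length. With a trend in length removed from each library, the rise of CD79A from day 7 to day 14 was 0.70 and that of CD79B 0.95, both still called, and CD79A was then also called at day 7, at 0.59 with an adjusted p of 0.00174. Without 3D_14d replicate 1 the differences from 2D at day 14 were 1.19 for CD79A and 0.87 for CD79B. Of the exonic bases of CD79B, 22.6% are shared with the gene AC127029.3, whose reads cannot be told apart from those of CD79B, while CD79A shares none.

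Surface co-receptors and regulators went different ways. CD72, an inhibitory receptor that binds PTPN6, had 64.8, 65.8 and 64.4 CPM in the 2D samples, then 73.8, 50.9 and 53.9 at day 7 and 140, 130 and 93.1 at day 14. The 2D samples lay within the range of day 7, and all day 14 samples lay above both. CD72 rose by 0.90 at day 14 against 2D (SE 0.183, adjusted p = 0.00246) and by 1.02 against day 7 (SE 0.183, adjusted p = 0.00203). Of its exonic bases, 18.7% overlap TESK1 on the opposite strand, and the library kit does not keep the strand. CD37 (chr19:49335396-49340606), a tetraspanin of mature B cells, had 98.3, 92.0 and 83.3 CPM in the 2D samples, then 88.0, 66.7 and 66.0 at day 7 and 207, 182 and 158 at day 14. As with CD72, the day 14 samples were the highest and the other 2 groups overlapped. It rose by 1.00 against 2D (SE 0.160, adjusted p = 0.000521) and by 1.31 against day 7 (SE 0.161, adjusted p = 0.000228), with -0.31 at day 7 against 2D (adjusted p = 0.131). That day 7 difference passed the threshold without 3D_7d replicate 1, at -0.48 with an adjusted p of 0.0358.

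CD81 (chr11:2377294-2397419), a tetraspanin of the B-cell co-receptor complex, had 193, 175 and 160 CPM in the 2D samples, then 111, 84.1 and 82.9 at day 7 and 348, 236 and 166 at day 14. All day 7 samples lay below all others, and 2D and day 14 overlapped. CD81 fell by 0.93 at day 7 (SE 0.228, adjusted p = 0.00588), then rose by 1.43 to day 14 (SE 0.231, adjusted p = 0.00113), the largest of the members' differences between the time points. At day 14 it differed from 2D by 0.51 (SE 0.227, adjusted p = 0.0977), and this value passed the threshold without 3D_14d replicate 3, at 0.73 with an adjusted p of 0.0138, and was 0.20 without 3D_14d replicate 1.

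CD22 (chr19:35329169-35347361), the sialic acid receptor that brings PTPN6 to the B-cell receptor, was the 1 member that fell at both time points against 2D. It had 535, 561 and 527 CPM in the 2D samples, then 309, 213 and 225 at day 7 and 240, 404 and 351 at day 14. All 6 scaffold samples lay below all 2D samples, and the 2 scaffold groups overlapped. CD22 fell by 1.12 at day 7 (SE 0.198, adjusted p = 0.000736), which is 2.17-fold, and by 0.71 at day 14 (SE 0.196, adjusted p = 0.0140), while the time points differed by 0.41 (adjusted p = 0.131). The last difference passed the threshold without 3D_14d replicate 1, at 0.62 with an adjusted p of 0.0105, and without 3D_7d replicate 1, at 0.60 with an adjusted p of 0.0498. PTPRC, the phosphatase CD45 that primes the SRC-family kinases, had 285, 286 and 259 CPM in the 2D samples, then 223, 231 and 231 at day 7 and 94.6, 169 and 232 at day 14. Its day 14 samples spread widely, with replicate 1 the lowest, and its fall by 0.74 against 2D (SE 0.240, adjusted p = 0.0287) was -0.46 without 3D_14d replicate 1. That call was lost without 2D replicate 1 or 2 or 3D_14d replicate 2, at -0.75, -0.75 and -0.76 with adjusted p of 0.0625, 0.0647 and 0.0579. Its difference between the time points was -0.46 (adjusted p = 0.164), and -0.79 without 3D_14d replicate 3 (adjusted p = 0.0209). CR2, the complement receptor CD21, had 16.2 ± 1.1, 15.2 ± 3.2 and 15.7 ± 6.5 CPM and no call.

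**Figure D3:**
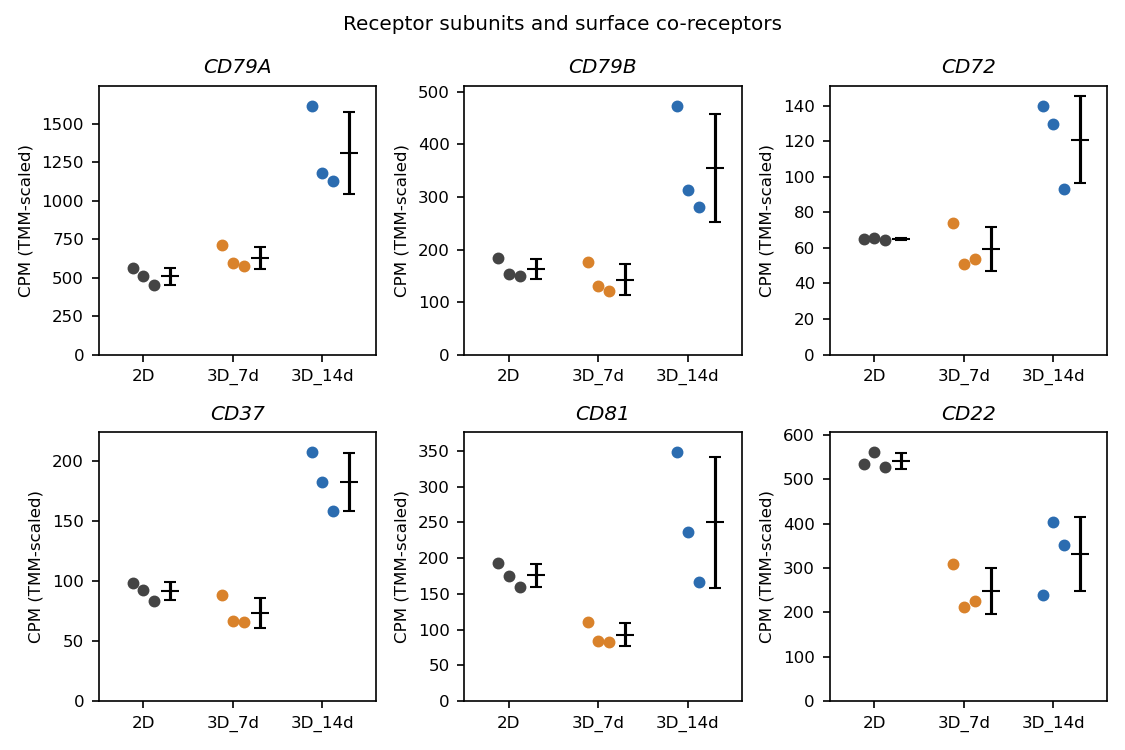
CPM (TMM-scaled) of 6 receptor and surface genes in each sample, as points by culture condition in the order of replicates 1 to 3, with the mean and SD of the 3 samples beside them. The day 14 samples of CD79A, CD79B, CD72 and CD37 lie above all others, CD81 is lowest at day 7, and CD22 is highest in 2D.

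The kinases that act first also diverged, and LYN fell at day 7 while FYN rose. LYN had 139, 139 and 90.8 CPM in the 2D samples, then 85.1, 69.5 and 69.6 at day 7 and 82.9, 170 and 143 at day 14. The lowest 2D sample was close to the highest day 7 sample, and 3D_14d replicate 1 lay within the day 7 range. LYN fell by 0.72 at day 7 (SE 0.242, adjusted p = 0.0291), rose by 0.82 to day 14 (SE 0.242, adjusted p = 0.0244) and differed from 2D by 0.10 at day 14 (adjusted p = 0.773). Its day 7 call was lost without any 1 of 2D replicates 1 and 2 and 3D_7d replicates 2 and 3, with values of -0.67, -0.67, -0.71 and -0.72 and adjusted p of 0.0746, 0.0722, 0.0740 and 0.0705. The rise to day 14 was lost without any 1 of 3D_14d replicates 2 and 3 and 3D_7d replicates 2 and 3, with values of 0.60, 0.76, 0.78 and 0.79 and adjusted p of 0.0803, 0.0661, 0.0784 and 0.0728.

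BLK, a B-cell kinase of the same family, had a mean of 721 ± 13 CPM in the 2D samples, then 917 ± 62 at day 7 and 1218 ± 220 at day 14, and rose by 0.76 at day 14 (SE 0.152, adjusted p = 0.00223). FYN rose by 0.53 at day 7 (adjusted p = 0.0146) and by 0.72 at day 14 (adjusted p = 0.00325), from 235 ± 22 CPM in 2D to 339 ± 14 and 387 ± 68. Its day 7 call was lost without 2D replicate 2 or 3 or 3D_7d replicate 2, at 0.51, 0.40 and 0.47. CSK, which phosphorylates the inhibitory tail of these kinases, rose by 0.60 at day 14 (adjusted p = 0.0178), a call lost without any 1 of the 2D replicates, at 0.57, 0.60 and 0.54. BLK also passed the threshold at day 7 when any 1 of the day 14 samples was left out, at 0.33 to 0.35 with adjusted p of 0.0485, 0.0464 and 0.0203. Between the time points, where none of these 3 kinases was called, BLK passed without 3D_14d replicate 3, at 0.55, CSK without the same sample, at 0.48, and FYN without 3D_14d replicate 1, at 0.35.

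SYK, the kinase that docks on the phosphorylated receptor, had 145, 145 and 151 CPM in the 2D samples, then 195, 180 and 170 at day 7 and 176, 205 and 159 at day 14. All 6 scaffold samples lay above the 2D samples, yet the differences did not pass the threshold, with 0.30 at day 7 (SE 0.136, adjusted p = 0.0878) and 0.29 at day 14 (SE 0.136, adjusted p = 0.113). SYK passed at day 7 without 3D_14d replicate 1 or 2, with adjusted p of 0.0483 and 0.0443, and at day 14 without 3D_14d replicate 3, at 0.37 with an adjusted p of 0.0399. BTK, which acts next and is the target of ibrutinib, had 92.0, 95.9 and 89.9 CPM in the 2D samples, then 150, 149 and 154 at day 7 and 112, 139 and 121 at day 14. The 3 groups did not overlap, and day 7 was the highest. BTK rose by 0.71 at day 7 (SE 0.129, adjusted p = 0.000903) and by 0.42 at day 14 (SE 0.129, adjusted p = 0.0220), a call lost without any 1 of the 2D replicates, at 0.39, 0.41 and 0.36. The day 14 call was also lost with total counts, no filter and only the 6 samples of the comparison, at 0.22, 0.37 and 0.42. Day 14 differed from day 7 by -0.29 (adjusted p = 0.114), and by -0.37 without 3D_14d replicate 2 (adjusted p = 0.0353).

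PLCG2, the phospholipase that SYK and BTK activate, had 316, 348 and 358 CPM in the 2D samples, then 397, 411 and 448 at day 7 and 237, 445 and 309 at day 14. Day 7 lay above 2D in all samples, and the day 14 samples ranged from below both groups to near the top. None of the comparisons passed, with 0.30 at day 7 (SE 0.193, adjusted p = 0.231), -0.04 at day 14 (SE 0.193, adjusted p = 0.878) and -0.34 between the time points (adjusted p = 0.202), the last being -0.61 without 3D_14d replicate 2 with an adjusted p of 0.0101. The adaptor BLNK, which joins SYK to PLCG2, had 668 ± 17, 586 ± 16 and 591 ± 77 CPM and no call. In the main fit, the transcripts of SYK, BLNK and PLCG2 were thus in none of the called sets, while that of BTK was called at both time points. Of the 18 alternative fits given below, 3 called SYK higher at day 7 and 3 did so at day 14. At day 7, 1 called PLCG2 higher and 2 called BLNK lower, and at day 14, 1 called BLNK lower. For BLNK at day 7, 1 of these fits used only the 6 samples of the comparison and gave -0.19, with an adjusted p of 0.0498.

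Among the lipid kinases and exchange factors, PIK3CG and RASGRP3 were highest at day 7. PIK3CG, the catalytic PI3K gamma subunit, had 15.3, 23.0 and 17.9 CPM in the 2D samples, then 51.7, 42.4 and 55.5 at day 7 and 24.8, 25.3 and 30.4 at day 14. The groups did not overlap, in the order 2D, day 14, day 7. It rose by 1.41 at day 7 (SE 0.187, adjusted p = 0.000110), a 2.66-fold change and the largest of the members against 2D, was 0.52 above 2D at day 14 (SE 0.185, adjusted p = 0.0430) and fell by 0.89 between the time points (SE 0.185, adjusted p = 0.00450). The day 14 call was lost when any 1 of 2D replicates 1 and 3, 3D_14d replicates 2 and 3 and all 3D_7d replicates was left out, with values of 0.37 to 0.56 and adjusted p of 0.0512 to 0.209. It was also lost with total counts, the filterByExpr filter of edgeR, no filter, only the 6 samples and a replicate block, at 0.32 to 0.52. In all, 12 of 18 alternatives lost this call. RASGRP3, which loads RAS with GTP in answer to diacylglycerol, had 44.5, 50.9 and 51.2 CPM in the 2D samples, then 98.8, 103 and 100.4 at day 7 and 63.3, 81.7 and 73.3 at day 14. Here too day 14 lay between the others without overlap. RASGRP3 rose by 1.04 at day 7 (SE 0.140, adjusted p = 0.000117) and 0.57 at day 14 (SE 0.139, adjusted p = 0.00663), and fell by 0.47 between them (SE 0.139, adjusted p = 0.0246), a call lost without 3D_7d replicate 2 or 3, at -0.44 and -0.45 with adjusted p of 0.0862 and 0.0752. The day 14 call of RASGRP3 against 2D was lost with total counts, at 0.37, and with no filter, at 0.52.

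Among the other genes of this branch, PIK3AP1, the adaptor BCAP that recruits PI3K, rose by 0.96 at day 7 (SE 0.215, adjusted p = 0.00333), from 383 ± 25 to 745 ± 19 CPM. At day 14 its samples averaged 524 ± 180 CPM, a difference from 2D of 0.45 (adjusted p = 0.116) that was 0.71 without 3D_14d replicate 1 (adjusted p = 0.000483). It differed from day 7 by -0.51 (adjusted p = 0.0935), and by -0.72 without 3D_14d replicate 2 (adjusted p = 0.0237). VAV2, an exchange factor for small GTPases of the RAC type, rose by 0.68 at day 7 (adjusted p = 0.00193) and was 0.35 above 2D at day 14 (adjusted p = 0.0669), or 0.43 without 3D_14d replicate 1 (adjusted p = 0.0147). VAV1, the haematopoietic form, had 37.2 ± 2.1, 36.3 ± 2.3 and 37.5 ± 4.6 CPM. DAPP1, an adaptor that binds PI3K products, and PIK3CD, the delta subunit targeted by idelalisib, rose by 0.53 and 0.58 at day 7, and both calls were lost in several of the fits without 1 sample, DAPP1 without any 1 of the 2D replicates or 3D_7d replicate 1 or 2 (0.43 to 0.50) and PIK3CD without any 1 of the 2D or 3D_7d replicates or 3D_14d replicate 3 (0.49 to 0.63). PIK3CD passed at day 14 without 3D_14d replicate 1, at 0.42, and its drop from day 7 without 3D_14d replicate 2, at -0.70. AKT1, the kinase that PI3K products activate, rose by 0.70 at day 14 (adjusted p = 0.00624), with 14.5% of its exonic bases shared with the antisense gene AL583722.2, and passed at day 7 without 3D_14d replicate 1 or 3, at 0.41 and 0.42. The regulatory subunit PIK3R1 had 71.7 ± 1.2, 65.0 ± 17 and 48.6 ± 18 CPM and no call, but passed at day 14 without 3D_14d replicate 3, at -0.82 with an adjusted p of 0.0281.

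**Figure D4:**
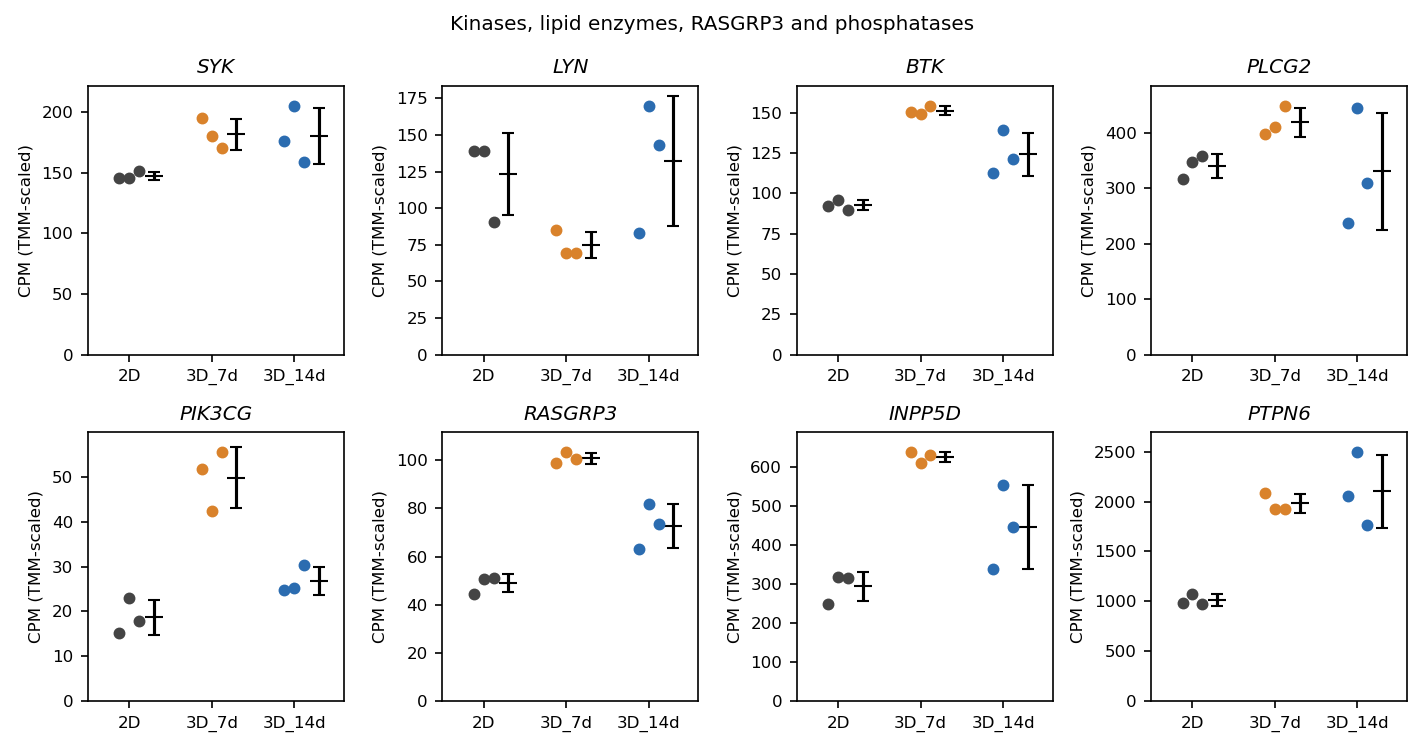
CPM (TMM-scaled) of 8 intracellular members in each sample, as points in the order of replicates 1 to 3, with the mean and SD of the 3 samples beside them. BTK, PIK3CG, RASGRP3 and INPP5D are highest at day 7 without overlap between the groups, PTPN6 is higher in all 6 scaffold samples, and LYN is lowest at day 7 apart from 1 day 14 sample.

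The inhibitory phosphatases rose in scaffolds. PTPN6 had 986, 1077 and 969 CPM in the 2D samples, then 2090, 1929 and 1930 at day 7 and 2056, 2494 and 1761 at day 14. Every scaffold sample lay above every 2D sample, and the 2 time points overlapped. It rose by 0.97 at day 7 (SE 0.149, adjusted p = 0.000282) and by 1.06 at day 14 (SE 0.149, adjusted p = 0.000234), a 2.08-fold change. INPP5D, the inositol phosphatase SHIP1 that removes the PI3K product, had 250, 317 and 315 CPM in the 2D samples, then 638, 611 and 630 at day 7 and 339, 554 and 446 at day 14. Day 7 was tight and highest, and day 14 lay between the other groups without overlap. INPP5D rose by 1.09 at day 7 (SE 0.177, adjusted p = 0.000428) and by 0.60 at day 14 (SE 0.176, adjusted p = 0.0181), and the day 14 call was lost without 2D replicate 1, at 0.47, or 3D_14d replicate 2, at 0.42, with adjusted p of 0.0978 and 0.0575. Day 14 differed from day 7 by -0.49 (SE 0.176, adjusted p = 0.0539), and by -0.67 without 3D_14d replicate 2 (adjusted p = 0.00981). The transcripts of these phosphatases were higher than in 2D while that of CD22, a receptor that recruits PTPN6, was lower, and that of CD72, which also binds it, was called higher at day 14.

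The ubiquitin ligases that end signalling gave no calls. CBLB had 127 ± 19, 193 ± 27 and 166 ± 63 CPM, and its difference of 0.60 at day 7 (adjusted p = 0.0640) passed without 3D_14d replicate 1 or 2, with adjusted p of 0.00462 and 0.0366, and its 0.38 at day 14 without 3D_14d replicate 1, at 0.66. CBL had 27.4 ± 4.6, 29.4 ± 15 and 25.8 ± 3.2 CPM. DOK3, an inhibitory adaptor for SHIP1 and GRB2, had 260 ± 4.1, 203 ± 28 and 247 ± 63 CPM, and without 3D_14d replicate 1 it passed at day 7 with -0.37 and between the time points with 0.46. BANK1, a scaffold for LYN and calcium release, had 181 ± 9.0, 172 ± 33 and 138 ± 27 CPM, and passed at day 14 without 3D_14d replicate 3, at -0.53. GRB2, the general adaptor of RAS signalling, stood at 382 ± 15, 457 ± 4.5 and 428 ± 45 CPM, and PAG1 at 1.49 ± 0.18, 2.49 ± 1.8 and 1.70 ± 0.84. LAT2, the membrane adaptor NTAL, rose by 0.45 at day 7 and 0.48 at day 14, with the day 7 call lost without any 1 of the 2D replicates or 3D_7d replicate 2 or 3 (0.38 to 0.42) and the day 14 call without any 1 of the 2D replicates (0.42 to 0.47).

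Downstream, PRKCB, the main protein kinase C isoform of B cells, had a mean of 41.7 ± 2.6 CPM in the 2D samples, then 33.6 ± 7.3 at day 7 and 59.0 ± 12 at day 14. It rose by 0.81 between the time points (SE 0.189, adjusted p = 0.00811), while its 0.50 against 2D at day 14 lay at an adjusted p of 0.0551 and passed without 3D_14d replicate 1 or 2 or 3D_7d replicate 1, at 0.53, 0.62 and 0.48. BCL10, an adaptor that forms filaments on the way to NF-kB, rose by 0.55 at day 7 (adjusted p = 0.00550) and by almost as much, 0.54, at day 14 (adjusted p = 0.00735), from 33.5 ± 0.55 CPM to 49.1 ± 3.1 and 48.8 ± 2.9. Its day 14 call was lost with total counts, at 0.34 (adjusted p = 0.0788), and with no filter, at 0.49 (adjusted p = 0.115). Its partner, the protease MALT1, gave no call at 97.3 ± 5.4, 105 ± 4.8 and 99.6 ± 16 CPM, with 11.5% of the exonic bases of MALT1 overlapped by antisense genes. The transcription factor NFATC2 rose by 0.59 at day 7 and 0.65 at day 14, from 19.97 ± 2.4 CPM to 30.2 ± 6.8 and 31.2 ± 8.1, while NFATC1, present at 159 ± 5.1 CPM in 2D, gave -0.04 and -0.06 without a call. Both NFATC2 calls were lost without any 1 of the 2D replicates. The day 7 call was also lost without 3D_7d replicate 1 or 2 or 3D_14d replicate 2, and the day 14 call without 3D_14d replicate 2 or 3 or 3D_7d replicate 1, with values from 0.39 to 0.64 and from 0.47 to 0.70.

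**Figure D5:**
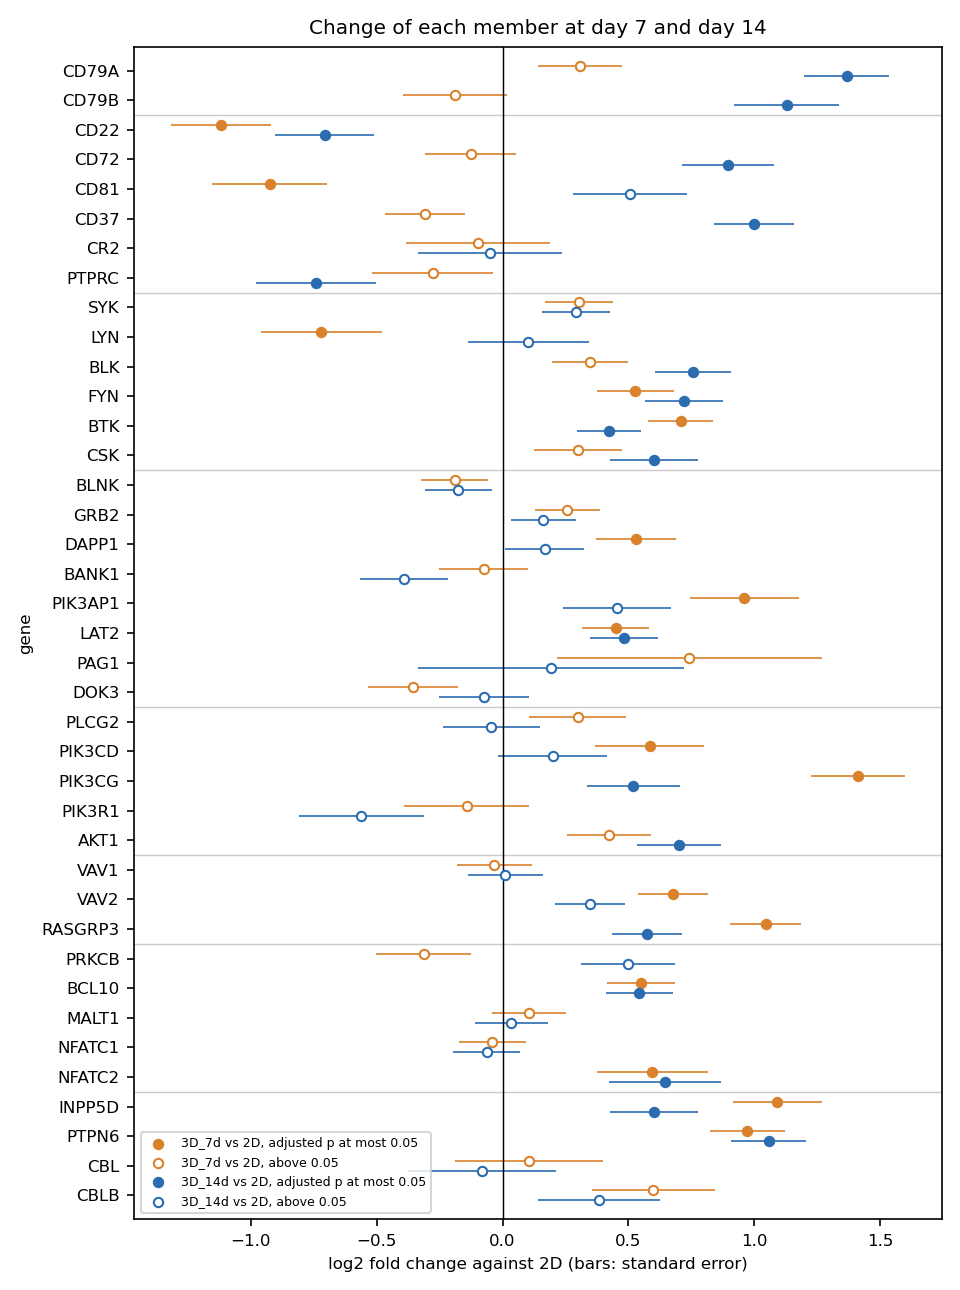
Log2 fold change of the 39 tested members against 2D at day 7 (orange) and day 14 (blue), with standard errors as bars, filled points for an adjusted p of at most 0.05, and lines between roles. CD79A, CD79B, CD72 and CD37 have filled points at day 14 alone, between 0.90 and 1.37, and PIK3CG, RASGRP3, INPP5D and BTK lie farther right at day 7 than at day 14.

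Read over all comparisons of the main fit, the members fall into few courses. CD79A, CD79B, CD72 and CD37 rose against both other groups at day 14 and were not called at day 7. CD81 and LYN fell at day 7 and rose again to day 14. BCL10, BTK, FYN, INPP5D, LAT2, NFATC2 and PTPN6 rose at both time points without a called difference between these, PIK3CG and RASGRP3 rose at both and fell from day 7 to day 14, and DAPP1, PIK3AP1, PIK3CD and VAV2 were called at day 7 alone. AKT1, BLK and CSK were called against 2D at day 14 alone, and 14 members, SYK, BLNK and PLCG2 among them, in no comparison. For DAPP1, PIK3AP1, PIK3CD, VAV2, AKT1, BLK and CSK the direct test of day 14 against day 7 gave no call, with adjusted p of 0.0601 to 0.230. Their calls at a single time point therefore do not show a difference between the time points. Of the surface genes and receptor chains, 5 of 8 rose from day 7 to day 14, against 2 of the 31 tested members inside the cell, LYN and PRKCB. These are 62.5% and 6.45%, beside 14.5% of all tested genes called higher. This split was made after the values were seen and was not tested.

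Other genes of the pathway were read from 6 lists of 69 genes, of which 66 were tested. At day 7, 13 rose and 14 fell and their median log2 fold change was -0.0025, at day 14, 18 rose and 8 fell with a median of 0.19, and between the time points 15 rose and 4 fell with a median of 0.18. The day 7 shares, 19.7% higher and 21.2% lower, lay near the 22.2% and 21.2% of all tested genes. At day 14 they were 27.3% and 12.1% beside 19.0% and 17.2%, and between the time points 22.7% and 6.06% beside 14.5% and 13.6%. In the RAS and MAPK list of 15 genes, 6 rose and 1 fell from day 7 to day 14. MAP2K2, the kinase MEK2, had 53.4 ± 13, 35.5 ± 9.8 and 99.1 ± 21 CPM and rose by 1.48 between the time points (adjusted p = 0.00108). MAPK3, the kinase ERK1 that MEK2 activates, fell by 0.90 at day 7 (adjusted p = 0.00112) and rose by 1.06 after it (adjusted p = 0.00114). HRAS rose at both time points, by 0.98 and 1.32, whereas RASGRP1, a relative of RASGRP3, fell by 1.20 and 0.63.

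In the surface list, FCGR2B, the inhibitory IgG receptor that recruits SHIP1, rose from 91.3 ± 4.5 CPM in 2D to 114 ± 3.3 by day 7 and 212 ± 35 at day 14, by 1.22 at day 14 (adjusted p = 8.09e-05). PECAM1 rose at both time points, by 1.61 and 2.22, from 13.8 ± 1.7 CPM to 42.2 ± 7.6 and 64.3 ± 17. IFITM1, a partner of CD81 at the membrane, fell by 0.77 at day 7 and was 0.93 above 2D at day 14, with 1469 ± 130, 861 ± 240 and 2800 ± 810 CPM. SIT1, an inhibitory transmembrane adaptor, followed the same course with 163 ± 10, 117 ± 13 and 276 ± 61 CPM. IFITM1 and SIT1 have few exonic bases, 897 and 1326, as do CD79A with 1258 and CD79B with 1272, whereas PECAM1 has 6813.

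Among calcium and NFAT genes, ITPR3, an inositol trisphosphate receptor, fell by 0.65 and 1.00, and NFATC3 rose by 0.61 at day 7 and fell by 0.94 after it, with 46.1% of its exonic bases shared with other genes. CHUK, the kinase IKK alpha, rose by 1.85 at day 7 (adjusted p = 4.63e-05) and by 0.98 at day 14, from 16.4 ± 1.7 CPM to 59.2 ± 15 and 32.4 ± 7.4, while IKBKB, the kinase IKK beta, fell by 0.52 at day 14. PTPN11, the phosphatase SHP-2, fell by 0.47 and 0.67, opposite in direction to its relative PTPN6.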

How the data were processed

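RNA of 9 MEC1 samples (3 in 2D, 3 at day 7 and 3 at day 14) was sequenced from SMART-Seq v4 libraries as single reads. Per the submitters' processing notes, the authors used Trimmomatic 0.39, STAR 2.5.3a, GRCh38 and featureCounts 1.6.4. The deposited values are raw counts per gene symbol, without normalization. The strand setting is not given in the sources used here. Groups come from the labels. Members and lists were chosen with earlier results of these data known.

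The filter kept genes above 1 CPM in 3 or more samples, which left 13463 of 51726 with a count. In R 4.3.3, edgeR 4.0.16 computed TMM factors and the quasi-likelihood test on all 9 samples, with Benjamini-Hochberg adjustment over all tested genes and a threshold of 0.05. CPM and RPKM use TMM-scaled library sizes and the deposited exon lengths. The log2 values of single samples include a prior count of 2. Full values were given for members with a called change, no overlap and a log2 fold change of 1 or more in size, and always for CD79A, CD79B, CD81, SYK, LYN, BTK and PLCG2. PTPRC was added after its values were seen. Of the other pathway lists, the 3 smallest p-values per direction and comparison were named. Some items of these lists are not reported here.

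Alternatives were DESeq2 (version 1.42.0), its size factors, total counts, other filters, 6 samples only, a replicate block, a removed length trend (loess span 0.4) and leaving out each sample. The pipeline was tested on simulated data. Protein motifs were not analysed here.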

Additional observations from a re-analysis of the deposited data

Results flagged for a closer look

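The effect against 2D differed between day 7 and day 14 for 9 members and 9 other genes of the pathway that are reported here, by the direct test of day 14 against day 7 in edgeR. On the log2 scale, day 14 was above day 7 by 1.06 for CD79A, 1.32 for CD79B, 1.02 for CD72, 1.43 for CD81, 1.31 for CD37, 0.82 for LYN and 0.81 for PRKCB. It was below day 7 for PIK3CG, at -0.89, and RASGRP3, at -0.47. Of these, the differences of LYN and RASGRP3 lost the threshold when single samples were left out, as given above with their values.

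Among the other genes, the difference was 0.90 for FCGR2B, 0.61 for PECAM1, 1.70 for IFITM1, 1.48 for MAP2K2, 1.06 for MAPK3 and 1.23 for SIT1. It was -0.94 for NFATC3, -0.87 for CHUK and -0.56 for IKBKB. Groups of 3 samples were too small to test single samples as outliers.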

How the results depend on the processing

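Each of the 117 fold changes of the 39 members was recomputed under 18 alternatives, and none reversed a called direction. The threshold was kept under all 18 for 10 of 16 calls at day 7, 9 of 18 at day 14 and 7 of 9 between the time points. Those at day 7 were CD22, CD81, BTK, PIK3AP1, PIK3CG, VAV2, RASGRP3, BCL10, INPP5D and PTPN6. At day 14 they were CD79A, CD79B, CD22, CD72, CD37, BLK, FYN, AKT1 and PTPN6. Total counts lost 12 calls, of FYN, DAPP1, PIK3CD and NFATC2 at day 7 and the others at day 14. The latter were of BTK, CSK, LAT2, PIK3CG, RASGRP3, BCL10, NFATC2 and INPP5D. Total counts alone gave 6 members that fell at day 7, 5 other pathway genes that rose there, medians of the members of 0.15 at day 7 and 0.19 at day 14, and 8 members that rose and 4 that fell at day 14. Over all 13463 tested genes, total counts called 5732 at day 7 and 4850 at day 14. With no filter, 9 members rose at day 14 and 1 fell between the time points. Of 51726 genes then tested, 4679 and 3537 were called in these comparisons. With only the 6 samples of a comparison, 21 rose and 6 fell at day 7, 1 fell at day 14, and 1 member and 2 other genes fell between the time points. Over all 13463 tested genes, that setting called 7805 at day 7, 4349 at day 14 and 2427 between the time points. The main fit called 5838, 4875 and 3785. With each sample left out in turn, 8 to 17 members rose at day 7, 10 to 21 rose and 1 to 4 fell at day 14, and 1 to 7 fell between the time points. For the other pathway genes these ranges were 5 to 16 that rose and 9 to 20 that fell at day 7, 4 to 9 that fell at day 14, and 1 to 6 that fell between the time points. The cause of these shifts was not tested. The replicate block gave 4 members that fell between the time points, where it called 3683 of all 13463 tested genes. Samples with the same number correlated with r from -0.100 to 0.185 in their deviations from the group means, above 0.1 in 2 of 9 pairs and in 0 of 18 pairs with different numbers. Between 2D and day 14, same-numbered pairs gave 0.0931 to 0.185 and the others at most 0.0399, whereas day 7 showed no such match with either group. Pairing was taken as given only where every pair exceeded 0.1, and was therefore not used; with the block, 15 members rose and 2 fell at day 14. Whether spread between replicates or depth limited the calls of the 39 tested members was not tested, and VAV3 did not pass the filter on low counts.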
